A study of Mus musculus with 24 samples.

Results

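The genes described here are the potassium channel genes of injured mouse brain, taken as every symbol that begins with Kcn and has a mean level of at least 1 TPM (a transcript level corrected for transcript length and scaled to the same sum in every library) over 24 libraries. Of 36333 genes in the table, 98 have such a symbol and 81 passed this minimum. The last one kept, Kcnrg, had a mean of 1.11 TPM and the first one left out, Kcnd3os, a mean of 0.879 TPM. Each library came from 1 male C57BL/6 mouse of 12 to 16 weeks, killed 5 days after controlled cortical impact (CCI, a piston-driven model of traumatic brain injury) or sham surgery. Sham mice (n = 4) received anesthesia and a skin incision, without craniotomy or impact, and were not given drug. Injured mice had a craniotomy before the impact, so the parts of craniotomy and impact cannot be told apart. The 4 injured groups held 5 mice each. Vehicle mice received control chow and saline, PLX3397 mice received chow with 290 mg/kg of the CSF1R inhibitor PLX3397 from 90 min after CCI, Anakinra mice received subcutaneous injections of 100 mg/kg of the IL1R1 antagonist Anakinra, and PLX3397+Anakinra mice received both drugs. PLX3397 lowers the number of microglia, which need CSF1R signalling to survive, and Anakinra blocks interleukin 1 signalling. The tissue is labelled cortex, but the study's methods describe a brain quadrant around the lesion that also held striatum, dorsal hippocampus and thalamus.

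Potassium channels let potassium leave the cell and so set the resting potential, end the action potential and limit repetitive firing. Voltage-gated channels (Kcna to Kcnd, Kcnh, Kcnq) open on depolarization, calcium- or sodium-activated channels (Kcnn, Kcnma1, Kcnt) open with ion entry, and inward rectifiers (Kcnj) and 2-pore-domain channels (Kcnk) carry resting currents. Kcnf, Kcng, Kcns and Kcnv encode silent subunits that modify Kv2 channels, and Kcnab, Kcne, Kcnip and Kcnmb encode auxiliary subunits. In brain most members are neuronal, but astrocytes use Kcnj10 and Kcnj16 to clear extracellular potassium, and microglia hold their potential and control inflammatory potassium efflux with channels such as Kcnk13 and Kcnk6. By such knowledge 45 of the 81 members were classed as neuronal, 4 as microglial, 2 as astrocytic, 2 as vascular and 2 as choroid plexus. The classes were set with earlier results of these data known, so counts by class may not be independent of the values. A single class was not assigned to 25 others, and 1 member, Kcnmb4os2, is a noncoding antisense RNA.

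The libraries were close in complexity, with 22160 to 23249 genes above 0. The tissue moved with injury: the summed level of 14 neuronal marker genes was 9185 to 9457 TPM in sham and 5614 to 6854 TPM in vehicle mice, and 13 of these 14 genes fell. The 15 microglia and macrophage markers summed to 654 to 701 TPM in sham, 4092 to 5787 TPM in vehicle, 1912 to 3047 TPM in PLX3397, 4600 to 5153 TPM in Anakinra and 1611 to 2102 TPM in PLX3397+Anakinra mice. All 15 rose with injury, and 9 of 10 astrocyte markers rose as well. In bulk tissue, fewer cells of a type and less RNA per cell cannot be told apart. The identifiers of the 5 vehicle mice all end in B and no others do; if the letter marks a batch, it cannot be told apart from vehicle treatment.

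In sham brain the level of the members spanned from Kcnab2, the beta subunit of axonal Kv1 channels, at 317 ± 11.7 TPM (SD, n = 4) to Kcnj15, a low inward rectifier, at 0.0310 ± 0.0283 TPM. Kcnab2 stood above all others in every sham mouse (302 to 328 TPM). Further down on the TPM scale, Kcnj9, a subunit of G protein-gated channels, at 154 ± 10.9 TPM and Kcnip2, a partner of Kv4 channels, at 152 ± 4.09 TPM did not differ beyond their spread. The astrocytic Kcnj10 was at 128 ± 11.9 TPM. The members together summed to 3463 ± 68.5 TPM in sham (3387 to 3551), 2623 ± 173 TPM in vehicle (2435 to 2824), 2736 ± 172 TPM in PLX3397, 2599 ± 138 TPM in Anakinra and 2910 ± 157 TPM in PLX3397+Anakinra mice. No injured mouse reached the lowest sham sum.

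To ask how these genes differed after CCI with its craniotomy, vehicle mice were compared with sham mice by limma on log2(TPM + 1). Benjamini-Hochberg adjustment was made over all 17267 genes tested. A gene was called when its adjusted p was below 0.05. In vehicle mice 53 of 81 members fell and 10 rose, against 27.7% of all genes lower and 26.6% higher. Of the 45 neuronal members 43 fell, none rose and all 45 differences were below 0, with a median of -0.59 on the log2 scale against -0.01 over all genes. The 10 that rose were Kcne1l, Kcnk6, Kcnn4, Kcnj15, Kcnj10, Kcnk13, Kcne4, Kcnj14, Kcnj16 and Kcnmb1, and none of them is classed as neuronal. Membership rested on the mean over all 24 libraries. Kcnj15 averaged 0.0310 TPM in sham and 0.9545 TPM in vehicle mice and passed the minimum only through the drug-treated groups. Kcnn4 averaged 0.373 TPM in sham and 2.805 TPM in vehicle mice and passed only through injured groups. Of the 63 called members, 54 had no overlap between the 5 vehicle and the 4 sham mice. These were 66.7% of the members, against 41.7% of all genes that were called without overlap, and 85.7% of the called members, against 76.8% of all called genes. The other injured groups were compared with sham in the same way. In PLX3397 mice 46 members were lower and 9 higher (22.5% and 22.7% of all genes), in Anakinra mice 51 and 9 (29.2% and 25.1%), and in PLX3397+Anakinra mice 40 and 8 (18.1% and 20.7%). These comparisons share the sham mice. Over the 5 groups together, the limma F test called 59 of 81 members and 51.9% of all genes.

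**Figure D1:**
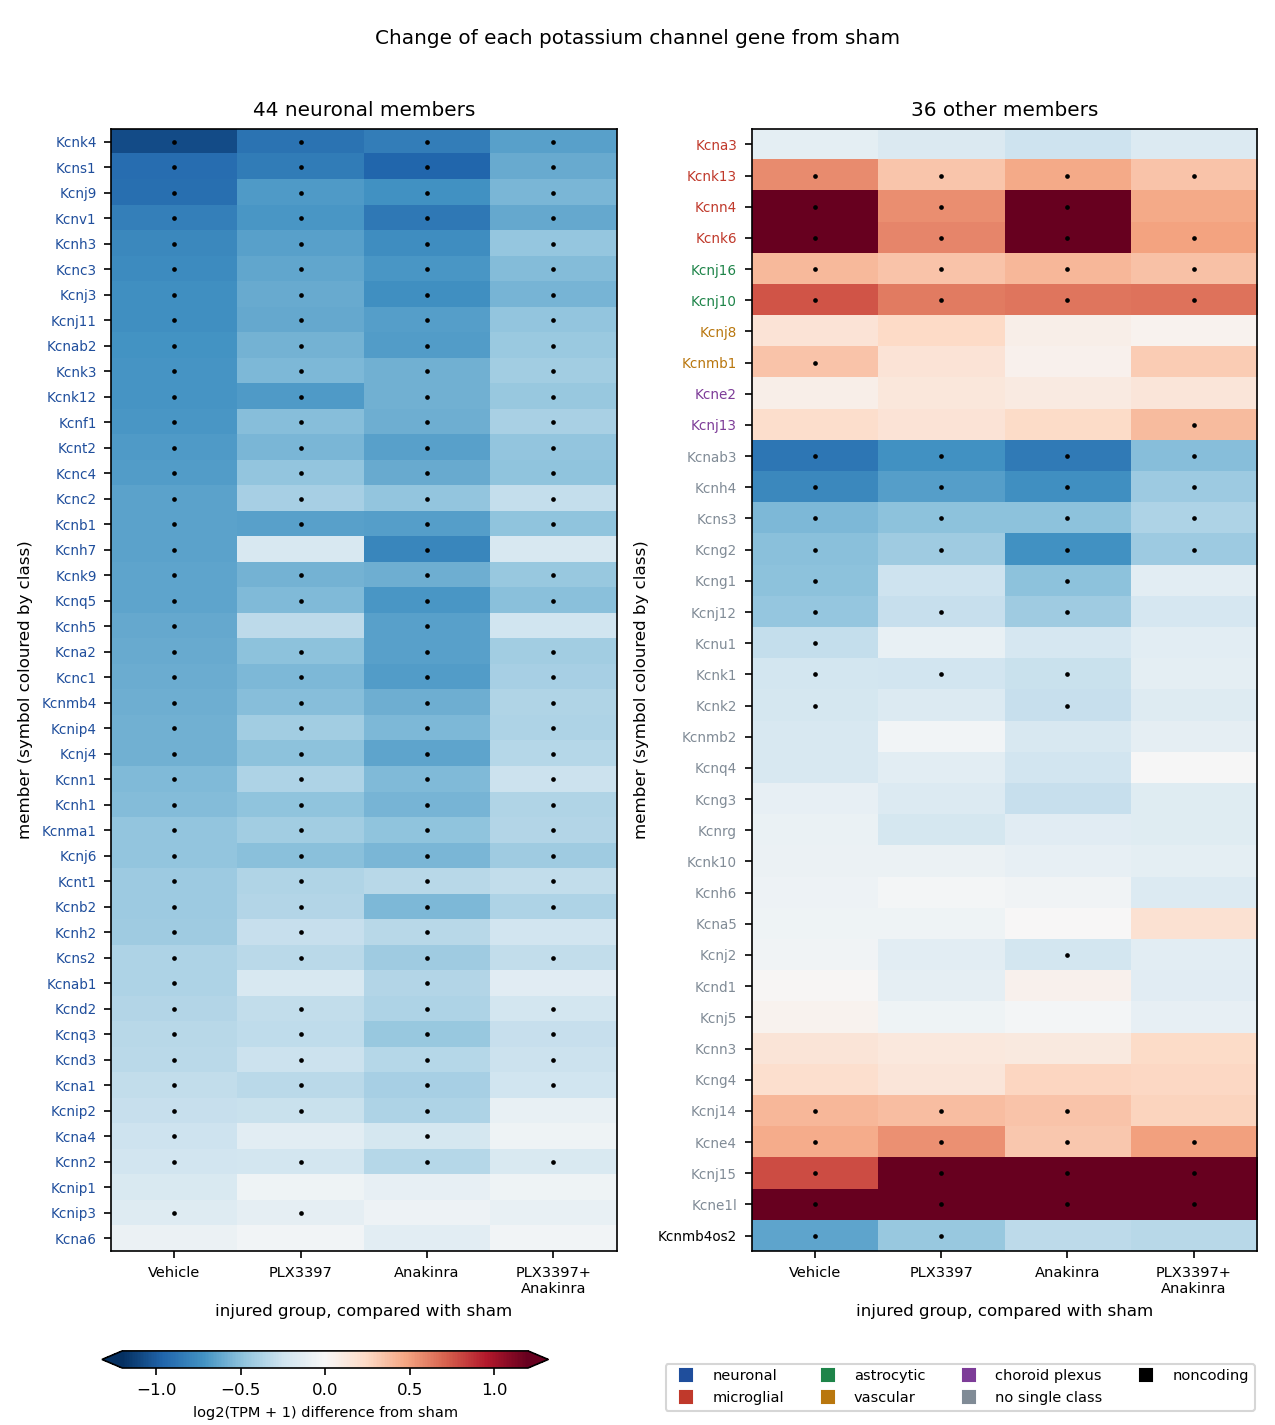
Difference of 80 of the 81 members from sham (colour, log2(TPM + 1), clipped at 1.2 in each direction) in the 4 injured groups, with a black dot where the adjusted p was below 0.05. The symbol's colour gives its class. The 44 neuronal members drawn are below 0 in every column, and Kcnk6 and Kcnn4 are paler in both columns with PLX3397.

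The largest fall belonged to Kcnk4, which encodes TRAAK, a mechanosensitive leak channel of myelinated axons. Its level was 15.1, 15.6, 13.8 and 17.4 TPM in the sham mice and 8.02, 7.17, 5.80, 7.27 and 6.03 TPM in the vehicle mice. Every vehicle mouse lay below every sham mouse, and the log2 difference was -1.07 ± 0.088 (SE, adjusted p = 2.28e-10). Kcns1, a silent subunit that joins Kv2 channels, ranged from 21.5 to 30.96 TPM in sham and from 12.7 to 13.6 TPM in vehicle mice, a log2 difference of -0.92 ± 0.085 (adjusted p = 1.87e-09). Kcnab3, another Kv1 beta subunit, was at 92.3, 87.2, 80.8 and 85.2 TPM in sham and at 46.9, 53.5, 42.3, 47.7 and 44.7 TPM in vehicle mice. Its log2 difference was -0.87 ± 0.076 (adjusted p = 5.97e-10), again without overlap.

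Among the voltage-gated alpha subunits, all 4 Kcnc genes, the Kv3 channels of fast-spiking interneurons, fell, with a summed level of 259 ± 13.3 TPM in sham and 162.1 ± 10.95 TPM in vehicle mice (n = 4 and 5). Both Kcnb genes, which encode the delayed rectifiers Kv2, fell as well, from 108 ± 4.85 to 69.4 ± 6.38 TPM. Among the Kcnh genes, the ether-a-go-go relatives, 6 of 7 fell, from 230 ± 14.6 to 149 ± 21.4 TPM, with Kcnh3 at -0.78 ± 0.10 (adjusted p = 7.85e-07). In the Kv1 genes the fall was partial. Of 6 Kcna genes 3 fell, and the summed level was 312 ± 14.5 TPM in sham and 251 ± 18.3 TPM in vehicle mice. Kcna2 of the juxtaparanode fell by 0.60 on the log2 scale (SE 0.070, adjusted p = 6.98e-08) and Kcna1 by 0.29 (SE 0.048, adjusted p = 1.16e-05). Kcna6 was at 62.8 to 71.1 TPM in sham and 60.2 to 67.3 TPM in vehicle mice, a log2 difference of -0.07 ± 0.056 that did not pass the test (95% interval -0.18 to 0.05, adjusted p = 0.318). Of the 3 Kcnd genes, the A-type Kv4 channels, Kcnd2 (-0.35) and Kcnd3 (-0.32) fell and Kcnd1 did not pass the test. Of the Kcnq genes, Kcnq5 (-0.63) and Kcnq3 (-0.33) were among those that fell. The differences between subfamilies were not tested.

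Of the silent and auxiliary subunits, Kcnf1 (-0.70), Kcnv1 (-0.82), all 3 Kcns genes and all 3 Kcnab genes fell, and 2 of 4 Kcng genes did, while no Kcne gene fell. Kcnab2 was 328, 324, 302 and 316 TPM in sham and 198, 206, 187, 188 and 185 TPM in vehicle mice. The groups were more than 90 TPM apart, and the log2 difference was -0.72 ± 0.064 (adjusted p = 8.07e-10). Of the 4 Kcnip genes, calcium sensors that bind Kv4, Kcnip4 (-0.58), Kcnip2 (-0.28) and Kcnip3 (-0.15) fell. Kcnmb4, the neuronal beta subunit of the BK channel, fell by 0.59 on the log2 scale, and Kcnma1, the BK pore, by 0.48. Kcnmb4os2 overlaps Kcnmb4 in part on the genome, and the library kit does not keep strand. Reads from the stretch that both cover cannot be told apart. Kcnmb1 lies within the span of Kcnip1, and whether their exons overlap was not examined.

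The sodium-activated Kcnt2 (-0.68) and Kcnt1 (-0.44) fell, as did 2 of the small-conductance calcium-activated channels, Kcnn1 (-0.53) and Kcnn2 (-0.23). Of the 9 Kcnk genes 6 fell and 2 rose. Besides Kcnk4 the neuronal leak channels Kcnk12 (-0.71), Kcnk3 (-0.71) and Kcnk9 (-0.64) were lower, while Kcnk1 (-0.22) and Kcnk2 (-0.21), assigned to no single class, fell less. The inward rectifiers divided most evenly. Of 14 Kcnj genes 6 fell and 4 rose, and their summed level was 553 ± 8.70 TPM in sham and 497 ± 18.9 TPM in vehicle mice. The 3 G protein-gated neuronal genes fell together, Kcnj9 by 0.90, Kcnj3 by 0.74 and Kcnj6 by 0.47 on the log2 scale. Kcnj11, the pore of the neuronal ATP-sensitive channel, fell by 0.74, and its partner Abcc8, the sulfonylurea receptor, fell from a mean of 24.3 to 12.9 TPM (log2 difference -0.86, adjusted p = 2.73e-08). The vascular pair did not go that way: Kcnj8 was at 0.16 ± 0.13 (adjusted p = 0.292) and its partner Abcc9 rose by 0.37 on the log2 scale (adjusted p = 0.00265). The summed level of 7 mural cell markers was 239 to 255 TPM in sham and 250 to 349 TPM in vehicle mice, and its part in the Abcc9 result was not tested.

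To ask whether the neuronal members fell more or less than neuronal RNA as a whole, the mean log2 level of 14 neuronal markers was subtracted in each library and the fit was repeated. On this relative scale 13 of 45 neuronal members were lower in vehicle than in sham mice, 11 were higher and 21 were not called, with a median of -0.08 (0.50 over all genes). Over all genes 1.58% were lower and 84.2% higher on this scale. The 13 lower ones were led by Kcnk4 (-0.56 ± 0.085, adjusted p = 2.22e-06), Kcns1 (-0.40 ± 0.093, adjusted p = 0.000367), Kcnj9 (-0.39 ± 0.058, adjusted p = 1.44e-06) and Kcnv1 (-0.31 ± 0.081, adjusted p = 0.00114). The 11 higher ones were led by Kcna6 (0.44 ± 0.059, adjusted p = 2.96e-07), Kcnip3 (0.36 ± 0.058, adjusted p = 5.50e-06), Kcnip1 (0.33 ± 0.075, adjusted p = 0.000315) and Kcnn2 (0.28 ± 0.065, adjusted p = 0.000315), and Kcna1, Kcna4, Kcnip2, Kcnd2, Kcnd3 and Kcnq3 were among the others. The Kv4 pores Kcnd2 and Kcnd3 and 3 of the 4 Kcnip genes thus lay on the higher side. The silent subunits Kcns1, Kcnv1 and Kcnf1 were lower, and Kcns2, another silent subunit, was at 0.14 (adjusted p = 0.0836). The position of a member depends on which markers stand for neurons. Of the markers of single regions, 4 of 8 hippocampal (median of the list -0.35), 4 of 8 thalamic (-0.28) and 0 of 9 striatal ones fell (limma; the largest size of a striatal difference was 0.15), against a median of -0.58 in the neuronal list, and a change of regional make-up was not tested.

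**Figure D2:**
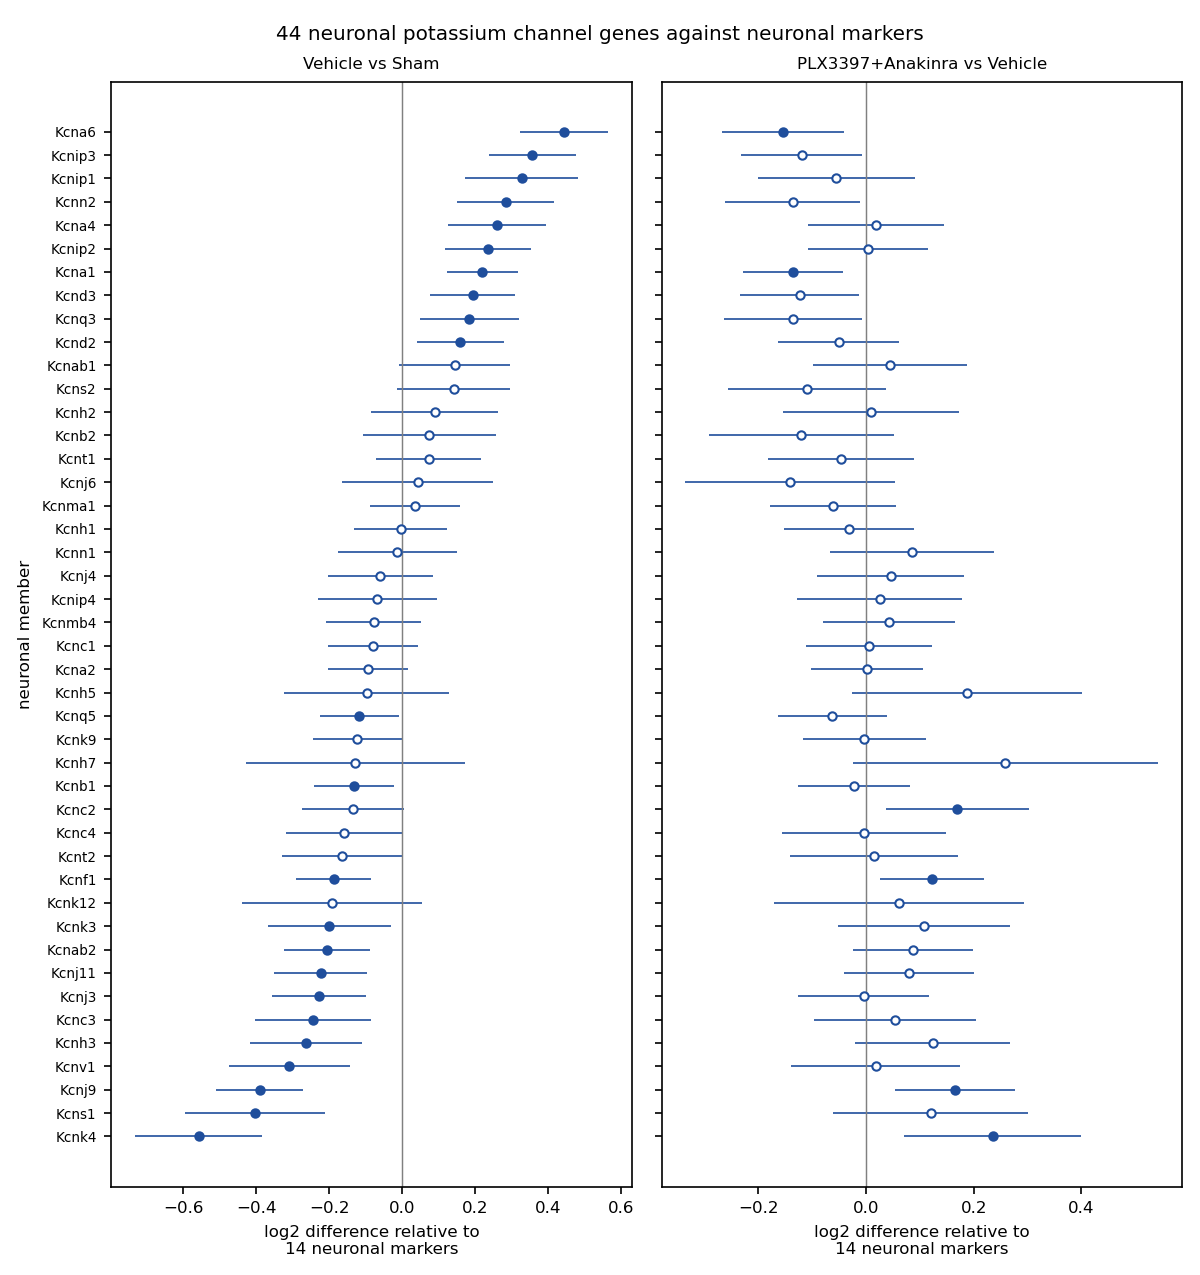
Log2 difference of 44 of the 45 neuronal members after subtraction of the mean of 14 neuronal markers (points; bars are 95% intervals), for vehicle against sham and for PLX3397+Anakinra against vehicle; filled points had an adjusted p below 0.05. From Kcna6 at 0.44 to Kcnk4 at -0.56 the members spread to both sides of 0 after injury.

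Kcnj9 and Kcnj10 are neighbours that moved in opposite directions. Kcnj9 lies on chromosome 1 at 172320508 to 172329322 and Kcnj10 at 172341210 to 172374085 (RefSeq, GRCm38.p6), read away from each other with 11.9 kb between their starts. Kcnj10 encodes Kir4.1, the astrocyte channel that takes up extracellular potassium. Kcnj9 was at 167, 157, 140 and 154 TPM in sham and at 81.7, 85.1, 79.0, 79.6 and 84.5 TPM in vehicle mice, a log2 difference of -0.90 ± 0.065 (adjusted p = 1.89e-11). Kcnj10 was at 118, 117, 135 and 141 TPM in sham and at 218, 208, 229, 204 and 221 TPM in vehicle mice, a log2 difference of 0.75 ± 0.063 (adjusted p = 2.99e-10). In each sham mouse the TPM level of Kcnj9 was above that of Kcnj10 and in each injured mouse it was below, and sham and vehicle mice did not overlap in either gene. The 250 bases before each start are printed, 5′ to 3′ on the strand of the gene, because they belong to the neighbouring genes that moved in opposite directions; capitals mark the letters GGGCGG or their reverse complement, a core found in many housekeeping promoters.
Kcnj9, chr1:172329323-172329572, minus strand: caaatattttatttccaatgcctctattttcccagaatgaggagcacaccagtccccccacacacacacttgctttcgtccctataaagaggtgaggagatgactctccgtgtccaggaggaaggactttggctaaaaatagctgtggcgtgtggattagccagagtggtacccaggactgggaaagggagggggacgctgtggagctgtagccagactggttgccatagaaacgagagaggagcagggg
Kcnj10, chr1:172340960-172341209, plus strand: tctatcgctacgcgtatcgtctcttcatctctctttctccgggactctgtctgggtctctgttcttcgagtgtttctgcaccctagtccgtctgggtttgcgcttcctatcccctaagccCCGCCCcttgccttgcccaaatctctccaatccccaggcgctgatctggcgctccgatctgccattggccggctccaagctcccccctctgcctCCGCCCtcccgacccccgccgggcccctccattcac
The Kcnj10 window holds this motif 2 times and the Kcnj9 window 0 times, and 32.7% of the 32851 RefSeq windows of the same length hold it on either strand. A match is a description of the letters and was not tied to the level of either gene. Of the 81 members, 59 have a promoter in the RefSeq table.

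Within 100 kb of each other lie 6 pairs of members, and the 2 that overlap (Kcnmb4 with its antisense RNA, Kcnip1 with Kcnmb1) may share reads. Besides Kcnj9 and Kcnj10, no pair free of overlap had both members called. In Kcna1 and Kcna6, 62.5 kb apart, Kcna1 fell and Kcna6 was not called. In Kcna3 and Kcna2, 52.8 kb apart, the neuronal Kcna2 fell and Kcna3 was not called. Kcnj16, which forms heteromers with Kcnj10 in astrocytes, lies 38.2 kb from Kcnj2 and rose by 0.39 ± 0.089 (adjusted p = 0.000595), from 12.7 to 17.8 TPM in sham to 15.9 to 20.9 TPM in vehicle mice with overlap, while Kcnj2 was at -0.04 (adjusted p = 0.670). The astrocyte markers summed to 3788 to 4173 TPM in sham and 6291 to 7538 TPM in vehicle mice, and their part in the rise of Kcnj10 and Kcnj16 was not tested.

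Kcne1l, an X-linked single-pass subunit that modulates Kv channels, had the smallest p of all members over the 5 groups (adjusted p = 7.38e-14). It was at 8.55, 6.38, 6.23 and 7.46 TPM in sham and at 29.8, 31.4, 41.2, 31.0 and 36 TPM in vehicle mice. The groups were more than 20 TPM apart, and the log2 difference was 2.10 ± 0.11 (adjusted p = 3.50e-14). In PLX3397 mice it was 30.6 to 34.9 TPM, in Anakinra mice 27.6 to 35.0 TPM and in PLX3397+Anakinra mice 24.0 to 34.9 TPM. The difference of PLX3397+Anakinra from vehicle was -0.18 (95% interval -0.39 to 0.03, adjusted p = 0.256), so the rise was not shown to change with either drug. Kcne4, a subunit that can inhibit Kv1 channels, rose by 0.44 ± 0.12 (adjusted p = 0.00264) and the inward rectifier Kcnj14 by 0.40 ± 0.15 (adjusted p = 0.0222). Kcnj14 was at 1.235 to 2.004 TPM in sham and 1.888 to 3.062 TPM in vehicle mice, with overlap. The limma F test over the 5 groups did not call Kcnj14 (adjusted p = 0.126). Neither Kcne4 nor Kcnj14 was followed singly in the alternatives.

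Kcnj15, which encodes Kir4.2, was nearly undetected in sham mice, at 0.0677, 0.0215, 0 and 0.0349 TPM. The vehicle mice were at 1.33 (J01B), 0.0215 (J17B), 1.32 (J18B), 2.05 (J19B) and 0.0462 TPM (J20B). Thus 3 vehicle mice were above every sham mouse and 2 were at the sham level, and the log2 difference of 0.78 ± 0.27 (adjusted p = 0.0157) ended its call without J19B (0.59, adjusted p = 0.0608). The mice given PLX3397 were at 0.821, 2.45, 2.26, 2.16 and 2.98 TPM, those given Anakinra at 3.02, 1.95, 1.35, 2.92 and 3.28 TPM and those given both at 3.24, 1.95, 2.33, 1.76 and 1.98 TPM. Every drug-treated mouse was above the 4 sham mice. The summed level of 8 fibroblast and meningeal markers moved with these values. It was 98.1 to 113 TPM in sham, 152 TPM in J17B and 184 TPM in J20B. In the other 3 vehicle mice it was 641 to 780 TPM, and in the drug-treated mice 545 to 1613 TPM. Not every marker went this way: between vehicle and sham 5 of the 8 rose, 1 fell and 2 were not called. The part of these cells in the Kcnj15 result was not tested. PLX3397+Anakinra was higher than vehicle by 0.86 ± 0.25 (adjusted p = 0.0197), and the difference was 0.66 (adjusted p = 0.0592) without J17B, 0.67 (adjusted p = 0.0734) without J20B, 0.76 (adjusted p = 0.0531) without J03, 0.86 (adjusted p = 0.0635) with the compared groups alone and 0.34 (adjusted p = 0.297) without both J17B and J20B.

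Of the 4 microglial members 3 rose with injury. Kcnk6, the leak channel TWIK-2 through which macrophages lose potassium when extracellular ATP activates the inflammasome, was at 4.00, 2.42, 3.34 and 3.23 TPM in sham and at 12.9, 10.2, 12.1, 14.2 and 12.8 TPM in vehicle mice. Its log2 difference was 1.67 ± 0.10 (adjusted p = 5.88e-13). In Anakinra mice it was at 13.5, 12.5, 12.9, 11.8 and 13.3 TPM, within or close to the vehicle range. In PLX3397 mice it was at 5.03, 6.44, 4.27, 5.28 and 5.72 TPM, and in PLX3397+Anakinra mice at 4.96, 5.23, 4.81, 4.91 and 4.59 TPM. Both groups with PLX3397 lay between sham and vehicle without overlap with either. The difference from vehicle was -1.08 ± 0.094 with PLX3397 (adjusted p = 1.49e-08) and -1.18 ± 0.094 with both drugs (adjusted p = 1.24e-09), and it was 0.04 with Anakinra (95% interval -0.15 to 0.24, adjusted p = 0.890). Against Anakinra alone, PLX3397+Anakinra was lower, at -1.22 ± 0.094 on the log2 scale (adjusted p = 1.34e-09).

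Kcnn4, the intermediate-conductance calcium-activated channel of microglia and blood leukocytes, was measured at a lower level. It was at 0.689, 0.329, 0.253 and 0.222 TPM in sham, 2.28, 1.80, 3.47, 4.44 and 2.04 TPM in vehicle, 0.268, 1.60, 0.863, 1.55 and 1.06 TPM in PLX3397, 2.53, 2.07, 2.48, 1.87 and 2.68 TPM in Anakinra, and 0.849, 0.725, 0.888, 0.896 and 0.985 TPM in PLX3397+Anakinra mice. Vehicle mice were above all sham mice and above all mice that received PLX3397. The log2 difference was 1.44 ± 0.18 for vehicle against sham (adjusted p = 3.77e-07), -0.88 ± 0.17 for PLX3397 against vehicle (adjusted p = 0.00114) and -0.98 ± 0.17 for PLX3397+Anakinra against vehicle (adjusted p = 0.000204). Markers of monocytes and neutrophils, which also carry this channel, rose in 4 of 4 genes with injury, from a sum of 0.434 to 3.59 TPM in sham to 5.91 to 37.3 TPM in vehicle mice, and were at 13.7 to 52.3 TPM in PLX3397 and at 10.9 to 25.0 TPM in PLX3397+Anakinra mice; their part in the Kcnn4 values was not tested.

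Kcnk13, which encodes THIK-1, the tonic leak channel of surveying microglia, moved less. It was at 10.4, 10.7, 11.1 and 11 TPM in sham and at 18.5, 15.04, 16.4, 14.9 and 17.8 TPM in vehicle mice, a log2 difference of 0.56 ± 0.069 (adjusted p = 1.79e-07) without overlap. With PLX3397 it ranged from 11.8 to 15.5 TPM and with both drugs from 13.5 to 15.3 TPM, overlapping the vehicle mice. The difference from vehicle was -0.23 ± 0.065 in both cases (adjusted p = 0.0255 and 0.0168). With the compared groups alone both calls were lost (adjusted p = 0.146 and 0.0512). The call of PLX3397 was also lost without J01B (0.0766), J18B (0.0512), J20B (0.0777), J12 (0.0549) or the PLX3397 mouse J20 (0.0883), and that of both drugs without J20B (0.0538). Kcna3, the Kv1.3 channel of activated microglia and T cells, was at 14.3 to 17.2 TPM in sham, 12.1 to 17.3 TPM in vehicle and 12.3 to 14.4 TPM in PLX3397+Anakinra mice. None of its differences passed the test, and vehicle against sham was at -0.12 (95% interval -0.34 to 0.09). Kcna3 thus did not rise with the microglia and macrophage markers. Its class was set by general knowledge, and which cells gave its reads was not tested. After subtraction of the 15 microglia and macrophage markers, all 4 microglial members were higher in PLX3397+Anakinra than in vehicle mice, Kcnk6 by 0.24 ± 0.11, Kcnn4 by 0.43 ± 0.16, Kcnk13 by 1.19 ± 0.11 and Kcna3 by 1.37 ± 0.15 on the log2 scale. Of all genes 98.5% were higher and 0.191% lower on that scale, from which a falling list is subtracted, so the 4 calls are near this background. The median of all genes was 1.43, and the values of Kcnk6 and Kcnn4 were further below it than those of Kcnk13 and Kcna3. The calls of 2 of the 4 were lost with a pseudocount of 0.1.

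**Figure D3:**
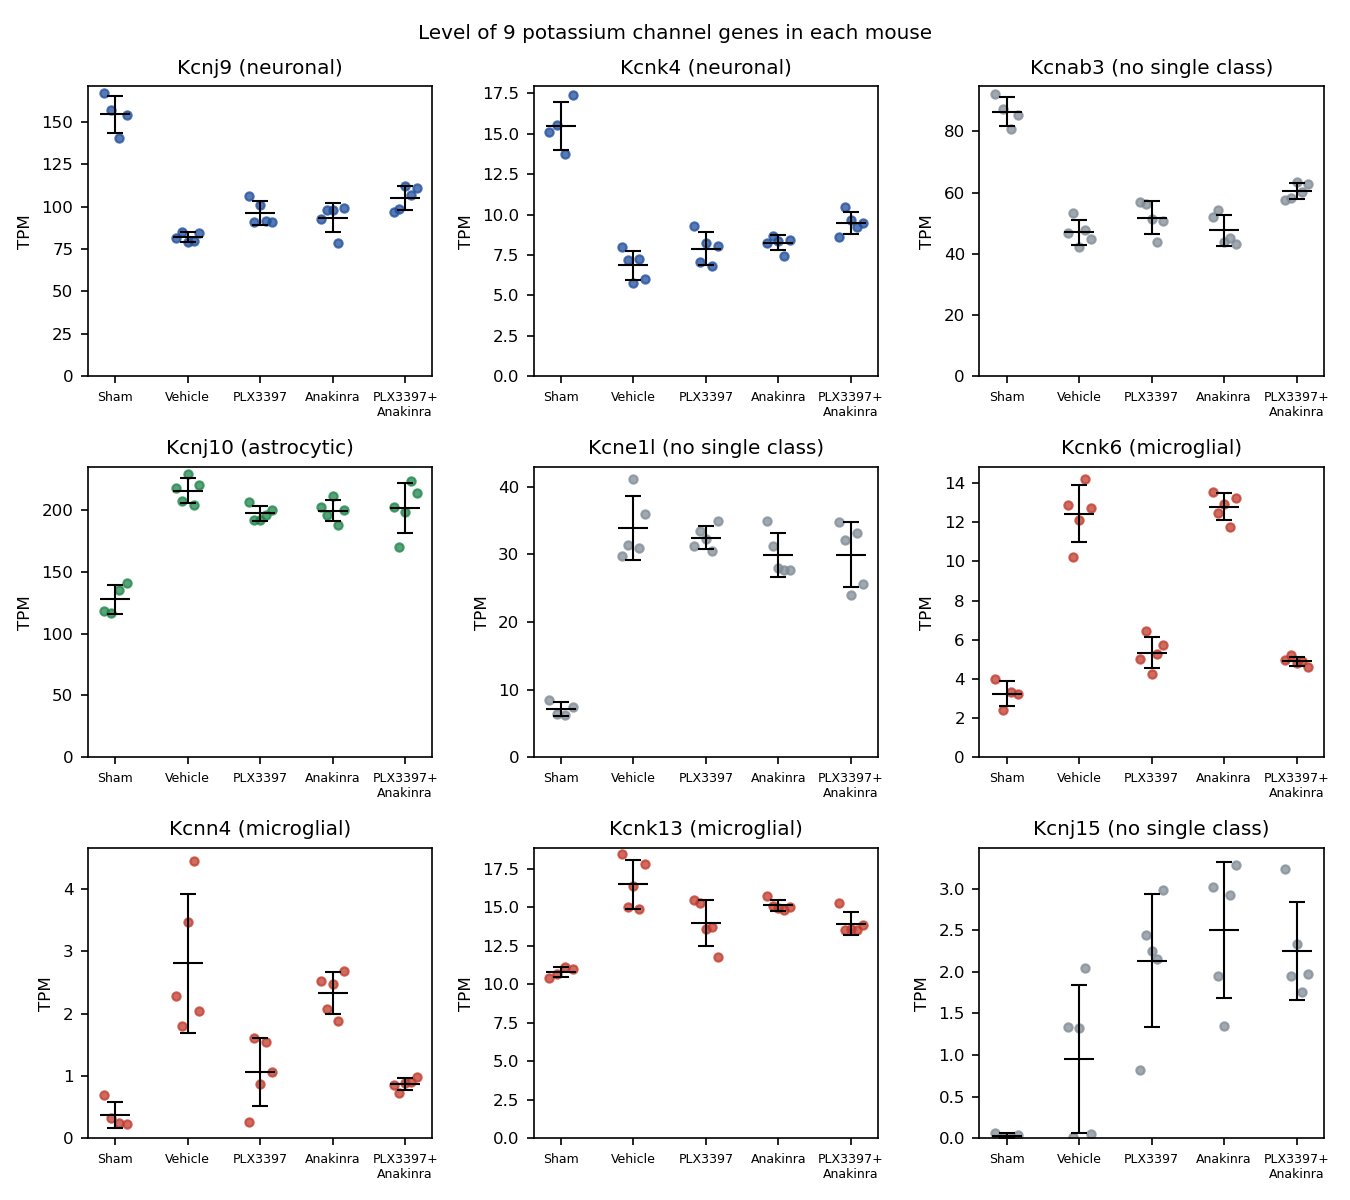
Level in TPM (y axis, from 0) of 9 members in each mouse (points) of the 5 groups, with the mean and SD (black). Kcnj9, Kcnk4 and Kcnab3 are lower and Kcnj10 and Kcne1l higher than sham in all 4 injured groups, while Kcnk6 and Kcnn4 are highest in the vehicle and Anakinra groups; 2 vehicle mice have Kcnj15 at the sham level.

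To ask what the drugs did to these genes, each treated group was compared with the vehicle group. PLX3397 alone changed 5 members, with Kcnk6, Kcnn4 and Kcnk13 lower and Kcnj9 and Kcnc2 higher (6.66% of all genes lower, 3.23% higher). As shares of the 81 members, 3 lower and 2 higher are not above those of all genes. Kcnj9 was at 106, 90.7, 101, 91.6 and 90.8 TPM with PLX3397, above all vehicle mice, with a log2 difference of 0.22 ± 0.061 (adjusted p = 0.0192). Kcnc2, a Kv3 subunit of interneurons, was at 25.1, 22.8, 21.1, 24.4 and 21.5 TPM against 22.3, 20.98, 18.5, 16.1 and 18.1 TPM, overlapping, with a difference of 0.25 ± 0.071 (adjusted p = 0.0237). Kcnj9 lost its call without J18B, J01 or J12 (adjusted p up to 0.0696) and Kcnc2 without J18B, J19B, J20B, J01 or J19 (up to 0.0913). The count of 5 was 11 without the vehicle mouse J17B and 3 without J18B, J20B or the PLX3397 mouse J12, and 9 without J17B and J20B together. Fitted on these 2 groups alone it was 3, without Kcnc2 and Kcnk13. With the 3 mice per group that share an animal number, the fit with the number as a replicate block called 2.

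Anakinra alone changed no member by limma, and 0.0463% of all genes were lower and 0.0695% higher. At an unadjusted p below 0.05 were 9 of 81 members and 12.4% of all genes. The member with the smallest adjusted p was Kcnj15 (0.95 ± 0.25, adjusted p = 0.110), which became the only call when the vehicle mouse J19B was left out (1.14, adjusted p = 0.0412). Without J17B and J20B its difference was 0.43 (adjusted p = 0.506).

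PLX3397+Anakinra changed 22 members, with Kcnk6, Kcnn4 and Kcnk13 lower and 19 higher (9.6% of all genes lower, 7.88% higher). The count of 3 lower members is not above the share of all genes. All 45 neuronal members were above vehicle, with a median of 0.19 on the log2 scale against 0.01 over all genes, and 15 of them passed the test. Kcnk4 was at 8.62, 10.5, 9.65, 9.23 and 9.46 TPM, above all vehicle mice and below all sham mice, and its log2 difference from vehicle was 0.42 ± 0.083 (adjusted p = 0.000729). Kcnj9 was at 96.7, 98.7, 112, 107 and 111 TPM, likewise between sham and vehicle, with 0.35 ± 0.061 (adjusted p = 0.000173). Kcnab3 was at 57.5, 58.1, 63.4, 60.2 and 62.6 TPM, with 0.36 ± 0.071 (adjusted p = 0.000793), and Kcnc2 at 23.7 to 25.7 TPM, with 0.36 ± 0.071 (adjusted p = 0.000824). Of these genes none overlapped vehicle. Kcnab2 (0.27), Kcns1 (0.31), Kcnf1 (0.31), Kcnh3 (0.31), Kcnh5 (0.37), Kcnk3 (0.29), Kcnk9 (0.18), Kcnn1 (0.27) and Kcnj11 (0.27) rose as well. Of these, Kcnh5 lost its call in 8 alternatives (adjusted p up to 0.123, without J19B), Kcnh3 in 7 (up to 0.109, without J18B) and Kcnk9 in 4 (up to 0.0631, without J17). Kcnf1, Kcnk3, Kcnn1 and Kcnj11 were not followed singly in the alternatives, so whether they kept their calls is not known. By contrast no Kcnd or Kcnb member passed the test, and Kcnj10, at 202, 170, 198, 223 and 214 TPM, stayed above every sham mouse and was at -0.10 from vehicle (95% interval -0.23 to 0.02, adjusted p = 0.258). The count of 22 was 12 without the PLX3397+Anakinra mouse J17, 14 without J09, 13 without the vehicle mouse J18B or J19B and 14 without J20B. The summed level of the neuronal markers moved with these values, at 6920 to 7328 TPM against 5614 to 6854 TPM in vehicle mice, and their part was examined on the relative scale. There 6 of 45 neuronal members differed from vehicle, with Kcnk4 (0.24), Kcnc2 (0.17), Kcnj9 (0.17) and Kcnf1 (0.12) higher and Kcna6 (-0.16) and Kcna1 (-0.14) lower, against 0.463% of all genes higher and 34.1% lower. This count was 10 without the vehicle mouse J17B, 1 without J18B or the PLX3397+Anakinra mouse J04, 2 without J19B and 3 without J20B or J09. Most markers of single regions were above vehicle as well. These were 9 of 9 striatal (median of the list 0.20, 0 called) and 8 of 8 thalamic ones (0.23, 3 called higher). Of the hippocampal ones 6 of 8 were above (0.24, 1 called higher and 1 lower). A change of regional make-up was not tested here either.

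PLX3397+Anakinra differed from PLX3397 alone in no member by limma (0.145% of all genes lower and 0.00579% higher). At an unadjusted p below 0.05 were 9 members and 6.71% of all genes. The smallest adjusted p was that of Kcnab3 (0.364). The interaction asks whether adding Anakinra did more in the presence of PLX3397 than in its absence. By limma it was called in 0 members and 0% of all genes. Its unadjusted p was below 0.05 in 7 members and 8.08% of all genes. For Kcnk6 it was -0.14 (95% interval -0.42 to 0.13) and for Kcnj9 -0.05 (95% interval -0.23 to 0.13).

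Against Anakinra alone, 2 members were lower with both drugs, Kcnk6 and Kcnn4, and 11 were higher (8.1% of all genes lower, 4.67% higher). The count of 2 lower members is not above the share of all genes. The higher ones were led by Kcnh7 (0.58 ± 0.17, adjusted p = 0.0218), Kcnh5 (0.42 ± 0.12, adjusted p = 0.0257) and Kcns1 (0.3405, adjusted p = 0.00495). Kcnab3 was close to Kcns1 (0.3379 ± 0.071, adjusted p = 0.00171). Kcnh7 lost its call in 3 alternatives (adjusted p up to 0.0796, without J21) and Kcnh5 in 4 (up to 0.0954, without J21). The count of 13 was 4 without the Anakinra mouse J21, 6 without the PLX3397+Anakinra mouse J17 and 21 without the Anakinra mouse J14. No mouse of this comparison takes part in that of vehicle with sham, so the 2 may be set side by side. Of the 53 members that fell with injury, 51 were above 0 in PLX3397+Anakinra against Anakinra, with a median of 0.18 (0.03 over all genes), and 11 were called higher and 0 lower. Of the 10 that rose with injury, 7 were below 0 and 2 were called lower. The share above 0 among all genes that fell with injury was not computed. Over the 81 members the Pearson correlation of the 2 differences was -0.706, and over all 17267 genes it was -0.737. The opposite movement was therefore not particular to the members. Genes of 1 library share its composition and are not independent points. Regional markers were mostly above Anakinra too, with 9 of 9 striatal (median 0.29), 8 of 8 thalamic (0.165) and 7 of 8 hippocampal ones (0.20). Regional make-up was not tested in this comparison.

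**Figure D4:**
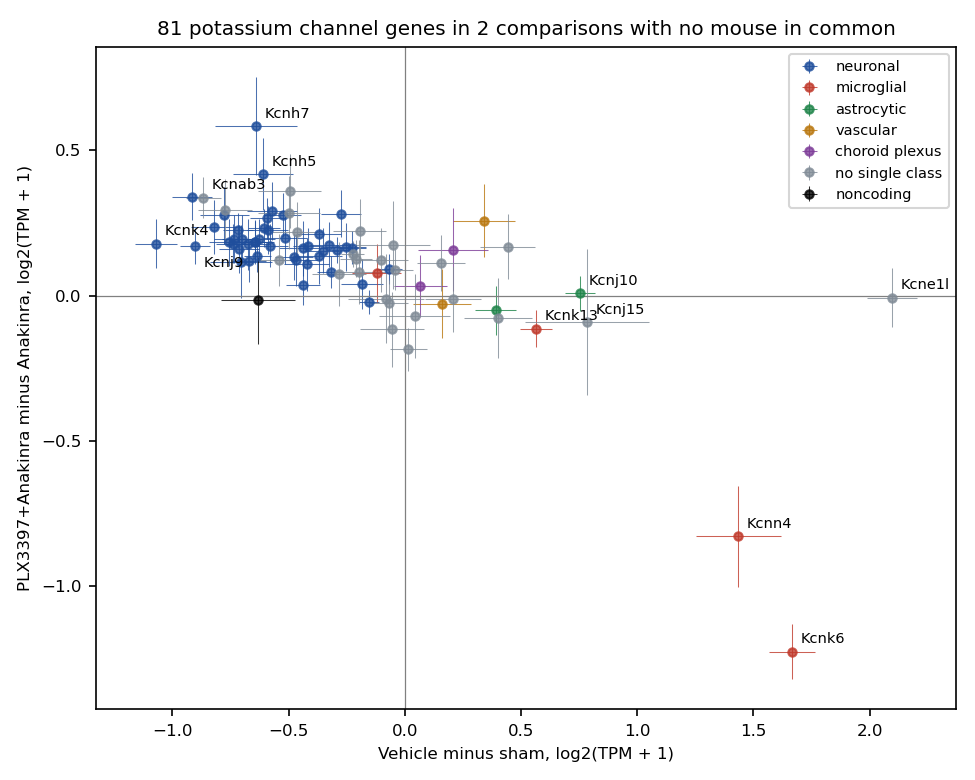
Each of the 81 members by its log2(TPM + 1) difference between vehicle and sham (x axis) and between PLX3397+Anakinra and Anakinra (y axis), with SE bars and colours for the class. Neuronal members lie to the left and mostly above 0, Kcnk6 and Kcnn4 at the lower right, and Kcne1l and Kcnj10 to the right near 0 on the y axis.

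Of 22 partners, other genes that handle potassium or hold these channels in place, 13 fell and 7 rose with injury, against 27.7% and 26.6% of all genes. With PLX3397+Anakinra against vehicle 5 rose and 2 fell, against 7.88% and 9.6% of all genes. The counts of 7 and 2 are near these shares. The pacemaker channel gene Hcn2 (0.03) and the axonal adhesion gene Cntn2 (-0.08) were not called with injury. The astrocytic sodium-potassium pump subunit Atp1b2 rose by 0.45 on the log2 scale (adjusted p = 2.03e-06). The neuronal chloride-potassium exporter Slc12a5 fell by 0.64 on the log2 scale, and Slc12a2, which loads chloride into cells, rose by 0.48. Of the Kv4 partners Dpp10 (-0.51) and Dpp6 (-0.38) fell, and of the Kv2 partner Amigo1 the difference was -0.52 (adjusted p = 1.35e-08). The astrocyte water channel Aqp4, which sits with Kcnj10 at vascular endfeet, rose from a mean of 51.5 to 214 TPM (2.03, adjusted p = 5.62e-14) and was at 196 TPM with both drugs (-0.14 from vehicle, adjusted p = 0.397). Slc12a5 (0.21), Amigo1 (0.17) and Dpp6 (0.14) were higher with both drugs than with vehicle, and Slc12a2 (-0.17) was lower.

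The choroid plexus members Kcnj13 and Kcne2 were not called between vehicle and sham, at 0.21 (95% interval -0.10 to 0.52) and 0.07 (95% interval -0.17 to 0.30). Kcnj13 was called higher in PLX3397+Anakinra than in sham mice (0.38 ± 0.15, adjusted p = 0.0461), a call that was lost in 16 alternatives (adjusted p up to 0.169, without J16). Of the vascular members Kcnmb1 rose by 0.34 (adjusted p = 0.0334), which rests on levels of 1.15 to 1.47 TPM in sham and 1.62 to 2.75 TPM in vehicle mice and on reads that may come from Kcnip1. This call was lost without J07 (adjusted p = 0.0627), J08 (0.0914), J19B (0.113) or J20B (0.0621) and with no filter on low values (0.0556). Of the 25 members of no single class 9 fell and 4 rose with injury, with a median of -0.08.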

How the data were processed

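RNA from the lesioned quadrant of 24 mice was sequenced as paired-end, polyA-selected, unstranded libraries. The authors trimmed and mapped the reads to mm10 (GRCm38) in CLC Genomics Workbench and deposited TPM values per gene for every library, whose sum is the same in each; the lowest values above 0 differ between genes of 1 library, as length-corrected values do. Read numbers are unknown, so no counting interval is given. Another deposited table held the same values and a filtered one also held p and F columns of the authors' own comparisons; neither was used. Groups came from the labels. From the TPM values, the 17267 of 36333 genes that averaged 0.5 TPM or more were taken as log2(TPM + 1), which understates changes of low genes, and fitted in limma 3.58.1 (R 4.3.3, empirical Bayes with a trend) with 1 mean per group over all 24 libraries; p-values were two-sided and adjusted by Benjamini-Hochberg over all genes. The script was tested on simulated data. The members, classes, marker lists and alternatives were chosen with earlier results of these data known. Named were the member with the highest mean of each main subfamily, all microglial, astrocytic, vascular and choroid plexus members, the 12 with the smallest p over the 5 groups and, in each comparison, the 3 called members with the largest difference in each direction; other members are named to complete a count and were chosen after their values were seen. Gene positions and promoters are from RefSeq (GRCm38.p6), which matched 81 of 81 members for position. The labels name the strain C57BL6N and the methods C57BL/6JRj. The age of 12 to 16 weeks comes with the deposited samples, and the study's methods give a narrower range. The mouse is the replicate throughout. Some genes are counted but not reported singly here.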

Additional observations from a re-analysis of the deposited data

Results flagged for a closer look

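In groups of 4 or 5 mice, 6 of 180 group and gene pairs (36 named members in 5 groups) held a mouse whose gap to its nearest neighbour took up most of the group's range, where chance flags about 1 in 20, or 9. Kcnj13 was at 16.3 TPM in the Anakinra mouse J21 and at 11.3 to 12.4 TPM in the others. Kcnj16 was at 15.9 TPM in the vehicle mouse J01B and at 20.1 to 20.9 TPM in the others. Kcnj3 was at 55.0 TPM in the PLX3397+Anakinra mouse J17 and at 46.0 to 47.8 TPM in the others. Kcnk13 was at 15.7 TPM in the Anakinra mouse J05 (others 14.9 to 15.1) and at 15.3 TPM in the PLX3397+Anakinra mouse J03 (others 13.5 to 13.9). Kcns1 was at 12.7 TPM in the vehicle mouse J19B and at 13.4 to 13.6 TPM in the others. No named member differed by the interaction of the 2 drugs.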

How the results depend on the processing

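Counts of called members in the 4 comparisons with sham, over the 5 groups, and in the comparisons with 0 calls other than Anakinra against vehicle stayed within 1.5 times the reported count under the other pseudocount (0.1), no filter on low values, median ratio scaling, no trend of the variance, the compared groups alone and each mouse left out. The study's own criteria (unadjusted p below 0.05, a ratio of means above 2 and a difference above 4 TPM) kept 3 members in vehicle and 3 in Anakinra against sham, 1 in PLX3397 and 1 in PLX3397+Anakinra against sham, and 1, Kcnk6, in PLX3397 against vehicle, in PLX3397+Anakinra against vehicle and in PLX3397+Anakinra against Anakinra, since few members change 2-fold. For PLX3397 against vehicle the count of 5 was 3 with the compared groups alone, 2 with a replicate block on 3 shared animal numbers, 1 for the same 6 mice with no replicate block, and 9 without J17B and J20B (the last 2 chosen after seeing the data). These numbers are not said to pair the mice; deviations of same-numbered mice correlated at 0.17, -0.13 and -0.07 over all genes. Leaving out single mice, the count ran from 3 to 11 in PLX3397 against vehicle, from 0 to 1 in Anakinra against vehicle, from 12 to 30 in PLX3397+Anakinra against vehicle, from 4 to 21 in PLX3397+Anakinra against Anakinra and, relative to the neuronal markers, from 1 to 10 in PLX3397+Anakinra against vehicle. The 4 microglial members called relative to their markers became 2 with the pseudocount of 0.1 and 2 without J17B and J20B. Of 150 called differences of named members none changed sign in 4401 recalculations, but calls were lost 99 times with 1 mouse left out, 8 times with no filter, 7 times with the compared groups alone, 4 times with no trend and 1 time each under the other pseudocount, median ratio scaling and without J17B and J20B. Depth is unknown and limits members near 1 TPM, such as Kcnn4, Kcnj15 and Kcnmb1.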
